A study of Homo sapiens with 18 samples.

Results

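JNK-knockout (JNKKO) acini treated with B/B homodimerizer alone were set against wild-type (WT) acini treated with the dimerizer together with TGF-β1. The columns of the 2 groups were taken by name from the expected count table, which gave 3 libraries in each group, 6 of the 18 in the series. The question was how far the dimerizer alone brings JNKKO acini to the state that WT acini reach when TGF-β1 is added. All 6 libraries came from MCF-10A.B2 cells, a line of human mammary epithelium that forms no tumours and carries an inducible chimera of the HER2 kinase, which the dimerizer brings together in pairs and so switches on. Every culture stood for 21 days on growth factor reduced Matrigel, a basement membrane gel, in medium with horse serum, insulin, hydrocortisone and cholera toxin. The first 7 days were common to all groups, and for the next 14 days EGF was replaced by the agents named, so neither group received EGF while under treatment. The JNKKO dimerizer group carries the knockout and received no TGF-β1. The WT dimerizer with TGF-β1 group carries no knockout. The 2 groups therefore differ in genotype and in cytokine at once, and from this comparison alone the parts of a difference cannot be told apart. WT dimerizer and JNKKO control (ethanol) libraries, 3 of each, are given beside it where a level needs a starting point. The labels do not say which JNK genes were edited, how, or whether the cells are 1 clone, nor whether replicates are cultures of their own, and p-values then reflect only the spread among these libraries, which may be technical.

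TGF-β1 binds the receptors TGFBR2 and TGFBR1, which phosphorylate SMAD2 and SMAD3. These enter the nucleus with SMAD4 and switch on genes for matrix proteins, proteases and their own feedback inhibitors, and in epithelial cells they favour a mesenchymal state over a junction-rich epithelial one. JNK is a stress-activated kinase that phosphorylates the transcription factor JUN, and JUN pairs with FOS proteins as AP-1 on the promoters of many of the same genes. HER2 signals through ERK, whose output includes ERBB ligands and the DUSP and SPRY inhibitors that restrain the pathway.

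One library stands against its label. WT dimerizer with TGF-β1 replicate 3 is titled WT, but its genotype tag reads JNK knockout, and results are given with and without it. PCSK1N (chromosome X, 48831094 to 48835633, minus strand, hg38) was at 0.0427, 0.0319 and 0.0322 counts per 1000000 (CPM) in JNKKO dimerizer, against 15.96, 15.5 and 17.7 CPM in WT dimerizer with TGF-β1, and it was at 12.2 CPM in WT dimerizer and 0.0118 CPM in JNKKO control. MAPK9, the gene for JNK2 (chromosome 5, 180233143 to 180292099, minus strand), was at 44.6, 42.7 and 44.3 CPM in JNKKO dimerizer and at 64.7, 68.4 and 65.4 CPM in WT dimerizer with TGF-β1. In both genes replicate 3 lay with the other 2 WT libraries. MAPK8 (JNK1) was at 29.9, 29.3 and 28.9 CPM against 31.6, 35.1 and 33.0 CPM. MAPK10 (JNK3) was at 7.47, 7.35 and 6.15 CPM against 4.23, 4.11 and 3.89 CPM, so transcript counts of the 3 JNK genes do not vanish in JNKKO cells.

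Totals ran from 24243537 to 32774844 expected counts over the 6 libraries. Transcripts encoded by mitochondria took 8.90% ± 0.152 of counts in JNKKO dimerizer, against 9.19% ± 0.641 in WT acini given both agents (SD, n = 3 each; exact permutation p = 0.6, two-sided, where 0.1 is the smallest p that 3 against 3 libraries allow). WT dimerizer with TGF-β1 replicate 1 stood somewhat apart from replicates 2 and 3, with a chi-square per gene of 8.83 and 11.2 against 3.23 between replicates 2 and 3. Basal markers were expressed in both groups, with 7 of 14 called lower and 2 higher in JNKKO dimerizer, against 32.7% and 32.2% of all genes. Among the lower ones, CDH3 was at 408, 381 and 399 CPM against 482, 515 and 499 CPM, and KRT17, EGFR and NGFR were lower too. KRT5 lay above, at 7445, 6539 and 7438 CPM against 5483, 4467 and 4590 CPM. TP63, a master factor of basal epithelium, overlapped, at 97.6, 112 and 99.6 CPM against 103, 98.0 and 95.97 CPM. Of 16 luminal markers, ELF5, PGR and KIT had 0 counts in all 6 libraries, while 8 had enough counts to be tested, with 3 higher and 3 lower. The luminal list summed to between 700.7 and 744.1 CPM in JNKKO dimerizer and between 892.8 and 1041 CPM in WT dimerizer with TGF-β1. In bulk RNA fewer cells of a type and less RNA per cell cannot be told apart. All log2 differences are JNKKO dimerizer minus WT dimerizer with TGF-β1, ± the standard error of the model, with Benjamini-Hochberg adjusted p from edgeR's quasi-likelihood F test over all genes. A gene was called at an adjusted p under 0.05.

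The 2 states were far apart. Of 16911 genes tested, 10972 were called (64.9%), 5440 higher (32.2%) and 5532 lower (32.7%) in JNKKO dimerizer, and 2519 (14.9%) were called and at least 2-fold apart, 1298 of them higher (7.68%) and 1221 lower (7.22%). On the deposited TPM the split was uneven, with 2652 genes higher and 8674 lower (limma on log2(TPM + 1)), and on that scale the median of all genes lay at -0.20. With each library centred on its median, an alternative chosen after seeing the data, it was 6669 and 4787. Centring shifts every gene of a library by the same amount, also genes near 0 TPM, and the median of all genes then lay at 0.08. Changes below are relative to the CPM scale, on which the median of all genes was at 0.00. Without WT replicate 3, 10451 genes were called, 10159 of them in the same direction as with it. The 3 and 3 libraries did not overlap in 11301 genes (66.8%). At the other end, 7830 genes (46.3%) had a 95% interval of the difference that lay inside 1.5-fold either way, and these are called level below. The interval lay inside 2-fold for 11538 genes (68.2%). A gene with few counts has a wide interval and can miss these limits whatever its difference. The share of level genes in a list therefore also depends on how strongly its members are expressed. Of the level genes 4713 were nevertheless called, so a called gene can also be level. Counts of list members below are to be read against these shares of all genes, 32.2% higher, 32.7% lower and 46.3% level. Counts on the TPM scale are instead to be read against the 2652 higher and 8674 lower of the 16911 genes there.

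Set beside the other distances in the series, the direct comparison had a median absolute log2 difference of 0.38 over all genes. It was 0.19 for JNKKO dimerizer against WT dimerizer, 0.20 for JNKKO dimerizer against JNKKO control, 0.38 for WT dimerizer with TGF-β1 against WT dimerizer and 0.26 for JNKKO with TGF-β1 against WT with TGF-β1. These comparisons share libraries. At least 2-fold and called were 910 genes (5.38%) for JNKKO dimerizer against WT dimerizer and 2675 genes (15.8%) for WT with TGF-β1 against WT dimerizer. On the first principal component of log2 CPM, JNKKO dimerizer averaged 11.6 ± 1.48 and WT dimerizer with TGF-β1 -57.3 ± 7.73, with WT dimerizer at 42.1 ± 0.85 (SD, n = 3 each). JNKKO dimerizer thus lay on the TGF-β1 side of WT dimerizer on that axis, but nearer to WT dimerizer. On the second component the 2 groups lay on opposite sides, at 42.9 ± 1.22 and -43.2 ± 3.39, with WT dimerizer at 8.99 ± 0.78. WT control lay at -45.8 ± 1.06 there, so the low end was shared with control WT acini. WT dimerizer with TGF-β1 replicate 3 was at -61.3 and -40.3 on the 2 components, beside replicate 2 at -62.2 and -42.3. JNKKO dimerizer with TGF-β1 averaged -90.15 and 22.2.

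**Figure D1:**
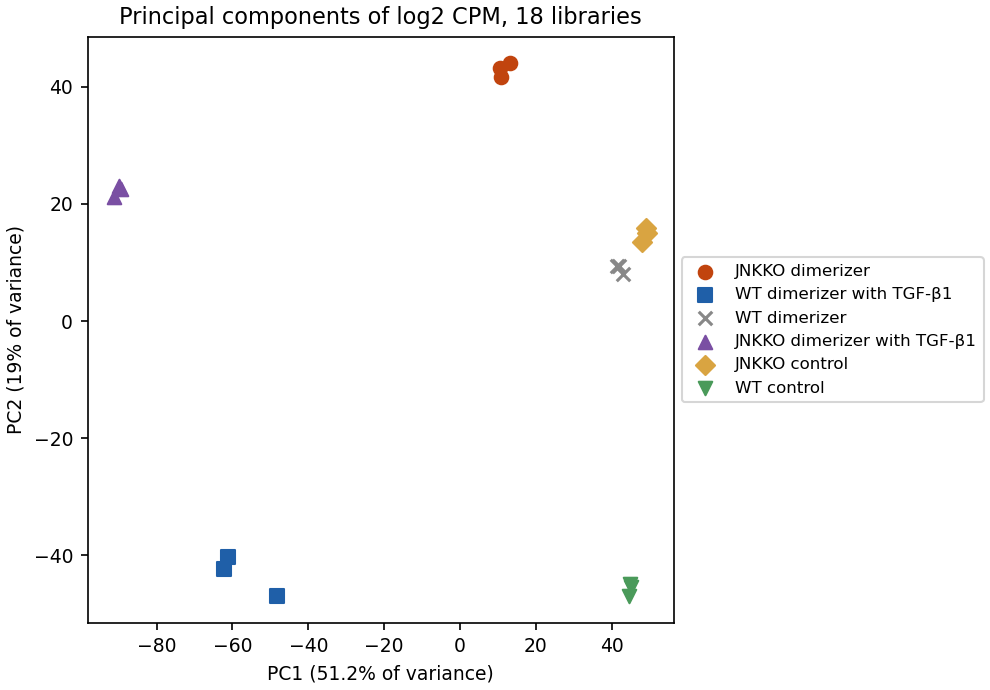
Principal components of log2 CPM over the 16911 genes tested, with 1 point per library and all 18 libraries shown; the first component (horizontal) holds 51.2% of the variance and the second (vertical) 19.04%. JNKKO dimerizer averages 11.6 on the first and 42.9 on the second component, WT dimerizer with TGF-β1 -57.3 and -43.2, and WT dimerizer 42.1 and 8.99.

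The promoters shown first hold the AP-1 motif TGANTCA in the 250 bases before the RefSeq start (build GRCh38.p14), with the motif in capitals. It reads the same on both strands. The genes shown were chosen after their values were seen, and only from genes that hold the motif. Of these, PLAUR was level with WT dimerizer with TGF-β1, and LAMA3 was below it but above WT dimerizer in every library. The other 2, POSTN and MMP10, stayed far below WT dimerizer with TGF-β1. The search found no motif before any listed start of FN1, INHBA, ITGA5, AREG, COL17A1, PMEPA1, JUN or DUSP6. LAMB3 held it before 1 of its 3 starts. Each run is written 5′ to 3′ on the gene's strand.
PLAUR, chr19:43670170-43670419, minus strand: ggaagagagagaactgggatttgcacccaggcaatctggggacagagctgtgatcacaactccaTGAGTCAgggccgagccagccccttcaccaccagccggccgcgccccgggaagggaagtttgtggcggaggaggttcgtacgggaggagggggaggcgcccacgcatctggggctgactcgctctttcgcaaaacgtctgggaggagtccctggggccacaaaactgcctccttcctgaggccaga
LAMA3, chr18:23872770-23873019, plus strand: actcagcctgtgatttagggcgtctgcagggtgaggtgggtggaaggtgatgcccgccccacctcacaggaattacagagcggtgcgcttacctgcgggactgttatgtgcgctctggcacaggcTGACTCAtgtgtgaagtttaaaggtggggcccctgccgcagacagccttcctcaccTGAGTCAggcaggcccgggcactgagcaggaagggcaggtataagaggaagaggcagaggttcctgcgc
POSTN, chr13:37598769-37599018, minus strand: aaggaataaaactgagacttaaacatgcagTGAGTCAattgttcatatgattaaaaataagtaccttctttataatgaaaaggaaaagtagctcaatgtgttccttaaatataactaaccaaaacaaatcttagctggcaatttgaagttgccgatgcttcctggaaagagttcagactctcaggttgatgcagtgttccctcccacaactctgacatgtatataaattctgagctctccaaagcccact
MMP10, chr11:102780629-102780878, minus strand: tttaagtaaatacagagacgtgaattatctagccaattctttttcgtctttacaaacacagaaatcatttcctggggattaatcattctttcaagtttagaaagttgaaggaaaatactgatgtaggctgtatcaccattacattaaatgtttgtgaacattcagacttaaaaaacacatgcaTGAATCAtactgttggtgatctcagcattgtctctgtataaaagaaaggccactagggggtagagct

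The motif begins 186 bases before the start of PLAUR, 125 and 69 bases before that of LAMA3, 220 bases before that of POSTN and 67 bases before that of MMP10. The start listed for LAMA3 lies inside the gene's span given below, not at its 5′ end. Starts on chr8 were left out of the search. Of the genes tested, 10682 had a start in the rest of the RefSeq table, and 6.67% of them held the motif before at least 1 start. The share was 10.6% among the 747 matched genes at least 2-fold higher in JNKKO dimerizer, 9.68% among the 692 at least 2-fold lower, and 5.16% among the 5873 that were level. The motif was thus present on both sides of the comparison and in genes that did not differ by much. A match is a run of letters, not a bound site.

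Ligands and their activators came first in the pathway and split. INHBA (chromosome 7, 41667168 to 41705834, minus strand) encodes the subunit of activin A, a ligand that signals through SMAD2 and SMAD3 as TGF-β does. It was at 103, 111 and 111 CPM in JNKKO dimerizer and at 7.40, 9.08 and 13.5 CPM in WT dimerizer with TGF-β1. Every JNKKO library was several times above every WT library, and the log2 difference was 3.44 ± 0.17 (edgeR, adjusted p = 7.43e-10). WT dimerizer averaged 10.04 CPM and JNKKO control 5.12 CPM, so in WT cells TGF-β1 left INHBA at -0.00 ± 0.22 on the log2 scale relative to dimerizer alone (edgeR, adjusted p = 0.993). TGFB1 itself was level, at 78.5, 68.2 and 79.5 CPM against 63.9, 74.6 and 78.9 CPM with WT dimerizer at 45.1 CPM. TGFB2 stayed at or below 0.272 CPM in each of the 6 libraries and was not tested.

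Of the 17 tested ligands and activators, 10 fell and 4 rose. The latent binding proteins LTBP2, at 77.6, 72.2 and 84.8 CPM against 307, 344 and 343 CPM, and LTBP3 fell, as did the activating integrin genes ITGB6, at 68.3, 73.6 and 72.6 CPM against 453, 509 and 494 CPM, and ITGAV. The log2 differences were -2.08 ± 0.06 for LTBP2 and -2.76 ± 0.06 for ITGB6 (edgeR, largest adjusted p = 2.78e-17). ITGB8, a second activating integrin gene, was level at 0.08 ± 0.06.

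Receptors and SMADs were mostly level, 12 of 16, against 46.3% of all genes. Of the 16, 8 were called lower and 2 higher, and on the TPM scale 14 were lower. The genes that were not level were TGFBR1, SMAD3, ACVR1 and BMPR2, all lower. TGFBR1, the type I receptor, was at 50.1, 52.9 and 46.8 CPM in JNKKO dimerizer and 166, 179 and 173 CPM in WT dimerizer with TGF-β1 (-1.79 ± 0.05, edgeR, adjusted p = 2.97e-22). WT dimerizer stood at 54.9 CPM, so the JNKKO libraries held the level seen without the cytokine. SMAD3 was lower at -0.62 ± 0.05, the BMP receptor genes ACVR1 and BMPR2 at -0.77 ± 0.06 and -0.77 ± 0.05, and TGFBR2 was level at -0.06 ± 0.04.

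Target and feedback genes of TGF-β fell as a group: 21 of 25 tested were lower, 16 of them at least 2-fold, and 2 were higher, with a median log2 difference of -1.72 against 0.00 over all genes. The median member stood 2.48 higher in WT with TGF-β1 than in WT dimerizer and 0.59 higher in JNKKO dimerizer than in WT dimerizer. PMEPA1 (chromosome 20, 57648392 to 57711536, minus strand), which encodes a membrane inhibitor of SMAD signalling, was at 41.0, 42.3 and 41.1 CPM in JNKKO dimerizer against 667, 807 and 813 CPM in WT dimerizer with TGF-β1. WT dimerizer held 25.03 CPM, and the log2 difference was -4.20 ± 0.06 (edgeR, adjusted p = 1.24e-22). NEDD9, an adaptor of focal adhesions, was at 2.82, 2.52 and 2.41 CPM against 57.8, 70.5 and 66.7 CPM. The 2 groups were far from overlapping in both genes.

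SMAD7, the inhibitory SMAD, was at 13.1, 11.5 and 13.5 CPM against 40.04, 40.9 and 44.2 CPM, and the co-repressor gene SKIL was at 30.2, 35.7 and 32.7 CPM against 112, 126 and 119 CPM. Both lay slightly above WT dimerizer, at 9.93 and 20.7 CPM. TGM2, a transglutaminase that crosslinks matrix, reached 9.31, 8.91 and 11.8 CPM against 368, 503 and 541 CPM, from 1.53 CPM in WT dimerizer (-5.55 ± 0.19 between JNKKO dimerizer and WT with TGF-β1, edgeR, adjusted p = 8.93e-12). LDLRAD4, another feedback inhibitor, had 3 counts in all in JNKKO dimerizer, against 242 in WT dimerizer with TGF-β1, 75.8-fold lower (counting interval 25.6 to 370.3).

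BAMBI, a decoy receptor, was level at 6.88, 10.5 and 8.08 CPM against 8.46, 7.76 and 9.50 CPM, and its groups overlapped. The target list gave the same counts, 21 and 2, without WT replicate 3.

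Targets of the sister BMP pathway, which act through SMAD1 and SMAD5, were lower in 7 of 8 tested genes and higher in 1. ID3, an inhibitor of differentiation factors, was at 39.98, 36.3 and 39.2 CPM against 142, 139.7 and 149 CPM (-1.90 ± 0.05, edgeR, adjusted p = 2.26e-23). SMAD6, the inhibitory SMAD of that branch, was at 0.427, 0.575 and 1.09 CPM against 9.01, 7.62 and 7.498 CPM. HEY1, a target shared with Notch, was higher, at 0.83 ± 0.12.

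Matrix genes, which encode the fibrous and adhesive scaffold around cells, were mostly lower. Of 30 tested, 21 fell, 20 of them at least 2-fold, and 5 rose (22 and 5 without WT replicate 3), with a median log2 difference of -1.79. FN1 (chromosome 2, 215360440 to 215436172, minus strand), which encodes fibronectin, was at 52.7, 38.9 and 56.0 CPM in JNKKO dimerizer against 3670, 4894 and 4471 CPM in WT dimerizer with TGF-β1. The lowest WT library was far above the highest JNKKO library, with a log2 difference of -6.47 ± 0.40 (edgeR, adjusted p = 6.53e-09). The JNKKO level still exceeded the 6.33 ± 0.756 CPM of WT dimerizer and the 17.3 CPM of JNKKO control. In JNKKO cells given TGF-β1 as well, FN1 averaged 15279 CPM.

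POSTN (chromosome 13, 37562583 to 37598844, minus strand) encodes periostin, an adhesion protein of remodelled matrix, and its promoter is printed above. It was at 1.32, 1.79 and 1.93 CPM against 329.8, 397 and 325 CPM (-7.67 ± 0.34, edgeR, adjusted p = 1.51e-10). AMTN, better known from enamel, was at 0.128, 0.192 and 0.193 CPM against 70.5, 82.6 and 76.7 CPM, and FBLN5, an elastic fibre protein gene, at 3.76, 2.78 and 3.19 CPM against 267, 357 and 309 CPM. WT dimerizer held 0.43 CPM of POSTN, 0.125 CPM of AMTN and 3.69 CPM of FBLN5, so JNKKO dimerizer was much nearer to WT dimerizer than to WT with TGF-β1 in these 3 genes.

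Collagen genes fell by kind. COL1A1 was at 41.3, 34.1 and 39.2 CPM against 309.8, 319 and 339 CPM, with 40.05 CPM in WT dimerizer. The basement membrane collagens COL4A1, at 24, 24.2 and 26.2 CPM against 257, 302 and 293 CPM, and COL4A2 fell by 3.52 ± 0.08 and 3.68 ± 0.08 (edgeR, largest adjusted p = 3.2e-16). COL7A1, the anchoring fibril collagen, fell by less, 1.40 ± 0.05, and COL5A2 was level. COL6A1 and COL16A1 ran the other way and rose by 0.98 ± 0.13 and 1.08 ± 0.12 (edgeR, largest adjusted p = 1.47e-05). COL1A2 and COL3A1 had at most 0.133 CPM in any of the 6 libraries. The enzymes that modify collagen, P4HA2, P4HA3 and PLOD2, were lower, and LOXL2, a crosslinking oxidase, was higher at 0.61 ± 0.25 (edgeR, adjusted p = 0.0455), a call lost with DESeq2's test (adjusted p = 0.0609) and without JNKKO replicate 1, JNKKO replicate 3, WT replicate 1 or WT replicate 2.

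Proteases and inhibitors fell in 21 of 27 tested genes, 14 at least 2-fold, and rose in 2 (19 and 2 without WT replicate 3). FAP (chromosome 2, 162170684 to 162245151, minus strand), a membrane peptidase, was at 0.897, 0.735 and 0.966 CPM against 149, 166 and 153 CPM (-7.49 ± 0.11, edgeR, adjusted p = 3.09e-25). The gelatinase gene MMP2 was at 0.513, 0.383 and 0.869 CPM against 36.5, 35.6 and 35.3 CPM. MMP10 (stromelysin 2; chromosome 11, 102770503 to 102780628, minus strand) was at 0.214, 0.319 and 0.193 CPM against 13.2, 14.9 and 14.3 CPM. No protease library of JNKKO dimerizer came near the WT libraries in these 3 genes. MMP13 had 0 counts in JNKKO dimerizer, against 116 counts in WT dimerizer with TGF-β1, so it was at least 36.4-fold lower (3 counts over the group as the floor).

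The plasminogen activation system differed from the metalloproteases. PLAUR (chromosome 19, 43646095 to 43670547, minus strand), the receptor of urokinase, was level: 24, 23.3 and 25.1 CPM in JNKKO dimerizer and 20.4, 24.9 and 25.2 CPM in WT dimerizer with TGF-β1, a log2 difference of 0.04 ± 0.07 with a 95% interval of -0.11 to 0.19. On the TPM scale it was lower by 0.23 (limma, adjusted p = 0.0185), close to the median of all genes there. Both were above the 9.59 CPM of WT dimerizer and the 10.04 CPM of JNKKO control. PLAU, urokinase itself, was at 140.2, 134 and 145 CPM against 145, 173 and 183 CPM, with WT dimerizer at 54.9 CPM. Its difference of -0.26 ± 0.08 was called (edgeR, adjusted p = 0.0139) but not without WT replicate 3, nor without JNKKO replicate 2 or WT replicate 2. PLAT, tissue plasminogen activator, was higher at 1.63 ± 0.10.

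**Figure D2:**
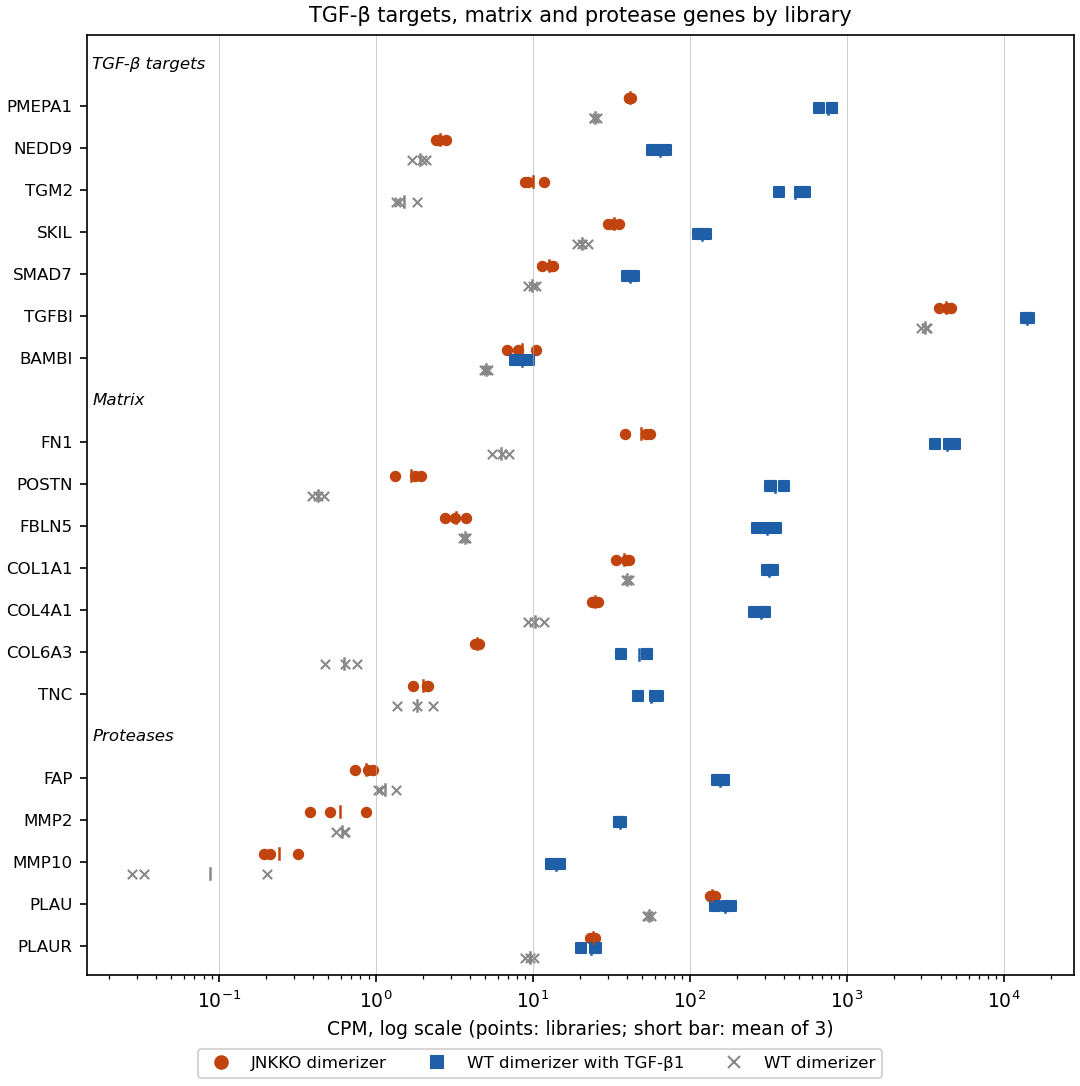
CPM (horizontal, log scale) of TGF-β target, matrix and protease genes in each library of JNKKO dimerizer, WT dimerizer with TGF-β1 and WT dimerizer, with short bars at the means of 3. FN1 and POSTN lie far to the left of the TGF-β1 libraries in JNKKO dimerizer, and PLAUR and BAMBI overlap with the TGF-β1 libraries.

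Genes of laminin-332 and hemidesmosomes, the anchoring plates that tie basal epithelium to its basement membrane, were called lower in 9 of 12 cases and higher in 1, and 7 of the 12 were level, against 46.3% of all genes. ITGB4 (chromosome 17, 75721328 to 75757818, plus strand), the β4 integrin of the hemidesmosome, was at 3476, 3297 and 3695 CPM in JNKKO dimerizer and 3197, 3484 and 3538 CPM in WT dimerizer with TGF-β1. The groups overlapped, and the difference was 0.04 ± 0.06 with a 95% interval of -0.09 to 0.16. WT dimerizer held 1516 ± 87.3 CPM and JNKKO control 1624 CPM. COL17A1, the transmembrane collagen of the same plate, was level too, at 2731, 2586 and 2749 CPM against 2714, 2593 and 2559 CPM. On the TPM scale 11 of the 12 genes were lower, ITGB4 and COL17A1 each by 0.26. The median of all genes was at -0.20 with log2(TPM + 1) and at -0.28 with log2(TPM + 0.1), so these 2 genes lay near it.

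Of the laminin-332 chains, LAMA3 and LAMB3 stopped short of the TGF-β1 level. LAMA3, the α3 chain (chromosome 18, 23689443 to 23956222, plus strand), had 2378, 2507 and 2536 CPM against 3051, 3454 and 3254 CPM, with WT dimerizer at 841 CPM (-0.40 ± 0.05, edgeR, adjusted p = 2.25e-07). LAMB3 was at 1983, 2228 and 2028 CPM against 2569, 2758 and 2920 CPM, with WT dimerizer at 589 CPM. LAMA3 and LAMB3 in JNKKO dimerizer were each above WT dimerizer and below WT with TGF-β1 in every library. DST, the plakin that links the plate to keratin, was the 1 gene of the list that was higher, at 0.89 ± 0.08.

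Integrins that bind matrix were level in 7 of 14 tested genes, against 46.3% of all genes, and 7 were lower and 2 higher. ITGB1, the common β1 chain, was at 1216, 1298 and 1252 CPM against 1155, 1258 and 1206 CPM, from 903 CPM in WT dimerizer. ITGA3, a laminin receptor chain, was higher at 1081, 1227 and 1128 CPM against 829, 914 and 961 CPM (0.35 ± 0.06, edgeR, adjusted p = 7.84e-05). ITGA5, the fibronectin receptor chain, was lower at 325, 311 and 332.3 CPM against 467, 627 and 676 CPM but above the 82.8 CPM of WT dimerizer. ITGB3, a chain of the vitronectin receptor, did not follow: it was at 0.384, 0.0958 and 0.0966 CPM against 4.38, 6.10 and 7.53 CPM, a log2 difference of -5.06 that became -5.90 without JNKKO replicate 1. On the TPM scale 11 of the 14 were lower and none higher: ITGB1 was lower there (-0.24 in limma), and ITGA3 was not called higher.

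**Figure D3:**
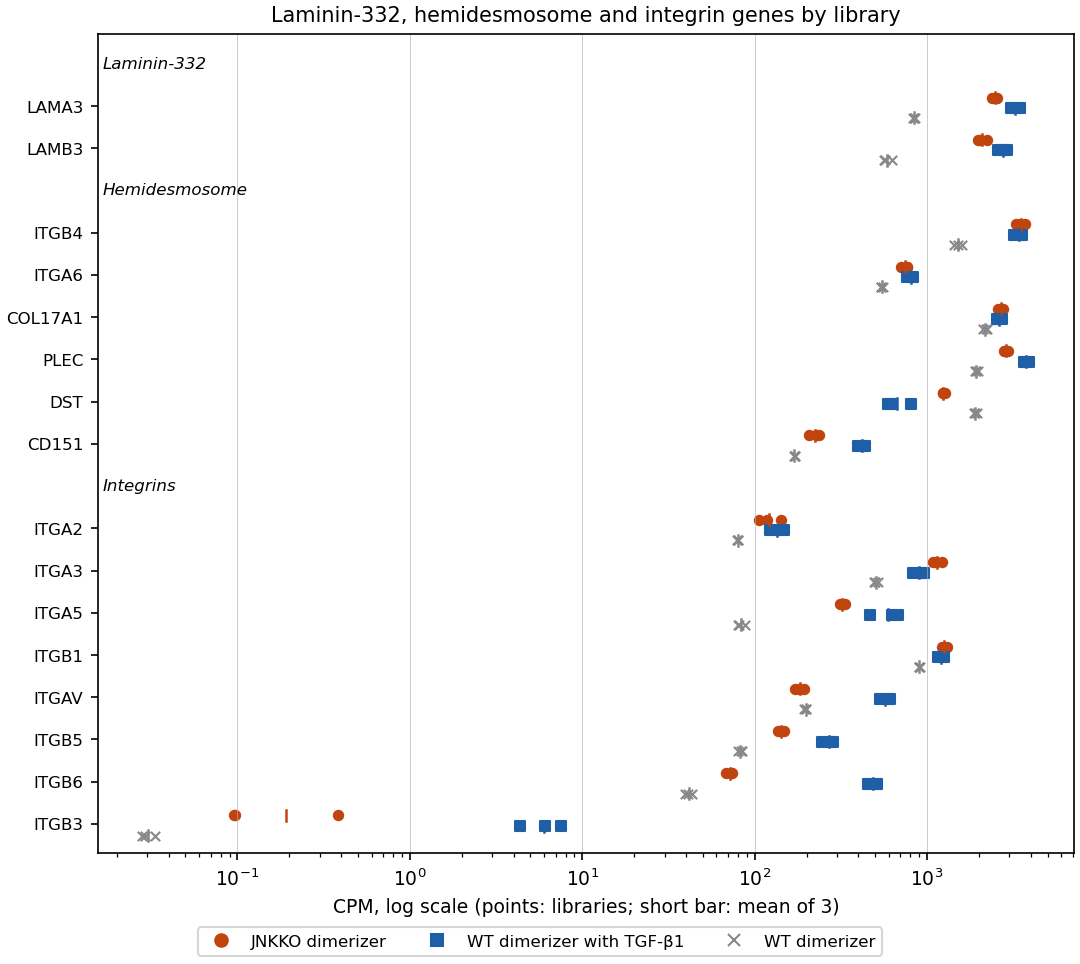
CPM (horizontal, log scale) of laminin-332, hemidesmosome and integrin genes in each library of JNKKO dimerizer, WT dimerizer with TGF-β1 and WT dimerizer, with short bars at the means of 3. ITGB4, COL17A1 and ITGB1 coincide with the TGF-β1 libraries, LAMA3, LAMB3 and ITGA5 lie between the other groups, and ITGB6 and ITGB3 lie nearer to WT dimerizer.

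Mesenchymal factors and markers were lower in 10 of 19 tested genes, 9 at least 2-fold, and higher in 5. SNAI2, a repressor of epithelial genes, was at 109, 118 and 111 CPM against 214, 258 and 259 CPM, and CDH2 (N-cadherin) was at 5.47, 6.04 and 5.50 CPM against 20.1, 24.6 and 22.8 CPM. Both groups of both genes lay above WT dimerizer, at 80.1 and 3.49 CPM. TPM1, a stress fibre tropomyosin gene, was at 41.1, 36.2 and 39.2 CPM against 175, 177 and 171 CPM, below the 58.4 CPM of WT dimerizer. PRRX2 had 1 count in JNKKO dimerizer, against 260 counts in WT dimerizer with TGF-β1.

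VIM (chromosome 10, 17228259 to 17237593, plus strand), the intermediate filament gene most used as a mesenchymal marker, ran against the list. It was at 2090, 1889 and 2187 CPM in JNKKO dimerizer and 1146, 1259 and 1257 CPM in WT dimerizer with TGF-β1, with 1047 CPM in WT dimerizer (0.75 ± 0.05, edgeR, adjusted p = 9.77e-12). TWIST1, TWIST2 and ZEB2 were not called, and TWIST2 and ZEB2 were level. ZEB1 was higher at 0.45 ± 0.09 and ACTA2 (smooth muscle actin) at 0.45 ± 0.08.

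Epithelial factors were higher in 10 of 15 tested genes and lower in 1, against 7 and 4 on the TPM scale. EHF, an ETS factor of epithelium, was at 13.2, 12.9 and 12 CPM against 1.12, 1.19 and 0.957 CPM, and the splicing regulator gene ESRP1 was at 147, 164 and 153 CPM against 77.4, 71.3 and 67.2 CPM. The log2 differences were 3.54 ± 0.14 and 1.10 ± 0.05 (edgeR, largest adjusted p = 1.76e-15). KLF4 was the lower one, at -0.98 ± 0.06, and TP63 was level.

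Junction genes were mixed, with 11 higher, 7 lower and 12 level of 23 tested, against 32.2%, 32.7% and 46.3% of all genes. On the TPM scale, where more of all genes were lower too, 7 were higher and 10 lower. With TPM centred 12 were higher and 7 lower. CDH1 (E-cadherin) was level, at 79.4, 85.0 and 80.04 CPM against 93.4, 76.04 and 75.8 CPM, with WT dimerizer at 106 CPM. CLDN7, a tight junction claudin gene, was higher at 42.2, 41.1 and 39.2 CPM against 11.9, 13.5 and 14.3 CPM (1.63 ± 0.06, edgeR, adjusted p = 6.04e-20), and CLDN1 and EPCAM rose by 1.61 ± 0.18 and 1.60 ± 0.12. CTNNB1 (β-catenin) was lower, at 235, 237 and 239.8 CPM against 586, 682 and 653 CPM. Among 11 desmosome genes 7 were higher and 3 lower (6 and 3 without WT replicate 3, 4 and 3 on the TPM scale), led by PKP2, at 88.6, 92.4 and 86.9 CPM against 31.2, 31.9 and 30.5 CPM.

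KRT15 (chromosome 17, 41513743 to 41522529, minus strand), a keratin of basal progenitors, gave one of the widest differences at high level: 3525, 3415 and 3458 CPM in JNKKO dimerizer against 114, 78.8 and 87.2 CPM in WT dimerizer with TGF-β1. WT dimerizer held 5406 CPM, so TGF-β1 lowered it in WT cells by 5.86 ± 0.14, and JNKKO dimerizer differed from WT with TGF-β1 by 5.21 ± 0.14 (edgeR, largest adjusted p = 5.79e-13). KRT16 rose with it, at 342, 360.4 and 344 CPM against 104, 100.4 and 107 CPM. KRT17 fell, at 1422, 1553 and 1384 CPM against 4532, 3645 and 3735 CPM, and KRT14 was level. KRT6A, KRT14, KRT16 and KRT17 have near-identical copies in the genome, so their counts depend on how reads were divided.

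Genes of squamous differentiation, the programme of stratified epithelium, were higher in 18 of the 25 tested, each at least 2-fold, and lower in 2, with a median of 2.90. The 5 other list members had too few counts to test, and a gene that passed only through the groups where it is high had to differ. S100A9, which forms calprotectin with S100A8, was at 370.1, 382 and 386 CPM in JNKKO dimerizer against 12.4, 10.97 and 14.4 CPM in WT dimerizer with TGF-β1, and S100A8 was at 138, 130.4 and 132 CPM against 10.9, 10.3 and 11.5 CPM. SPRR1B, a cornified envelope gene, was at 30.6, 26.7 and 29.7 CPM against 1.39, 1.23 and 1.27 CPM, and KRT1 at 17.7, 10.7 and 16.6 CPM against 0.635, 0.431 and 0.833 CPM. KLK8 had 31 counts in JNKKO dimerizer, against 0 counts in WT dimerizer with TGF-β1, at least 10.99-fold higher. The median step of the list was -3.24 between WT with TGF-β1 and WT dimerizer and 0.01 between JNKKO dimerizer and WT dimerizer. KRT10 and FLG were the 2 lower genes, at -0.95 ± 0.16 and -0.70 ± 0.12, and FLG was not called when TPM were centred. With only the 6 libraries in the model 13 genes were higher and 3 lower. Summed over the list, JNKKO dimerizer held 1555, 1324 and 1412 CPM against 2139, 1332 and 1407 CPM. The pooled level was thus not higher, although most single members were.

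JNK pathway transcripts were within 1.5-fold in 13 of 21 genes, against 46.3% of all genes. Of the 21, 11 were lower and 4 higher, and on the TPM scale 18 were lower and 1 higher. JUN (chromosome 1, 58780788 to 58784327, minus strand), the main JNK substrate, was at 98.4, 84.1 and 103 CPM in JNKKO dimerizer against 301, 322 and 351 CPM in WT dimerizer with TGF-β1 (-1.77 ± 0.07, edgeR, adjusted p = 4.05e-14). WT dimerizer was at 81.9 CPM, so the JNKKO libraries were near the level without cytokine. Among 17 AP-1 genes tested, 10 were lower and 3 higher. JUNB was level, at 239, 268 and 226 CPM against 204, 246 and 266 CPM, from 129.6 CPM in WT dimerizer. FOS rose, at 147, 152 and 133 CPM against 56.9, 51.1 and 60.6 CPM (1.36 ± 0.16, edgeR, adjusted p = 6.3e-06), and MAF fell, at 7.65, 6.71 and 7.79 CPM against 53.5, 62.3 and 57.9 CPM.

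ERK feedback and ERK-induced genes were higher in 18 of 24 and lower in 3 (19 and 3 without WT replicate 3), with a median of 0.55, and 13 were higher on the TPM scale. DUSP5 (chromosome 10, 110497838 to 110511544, plus strand), a nuclear phosphatase of ERK, was at 23.6, 23.7 and 23.3 CPM in JNKKO dimerizer against 4.99, 5.57 and 5.71 CPM in WT dimerizer with TGF-β1 (2.12 ± 0.09, edgeR, adjusted p = 2.67e-18). DUSP6, a cytoplasmic ERK phosphatase gene, was at 288, 327 and 289.8 CPM against 89.2, 112 and 115 CPM, and SPRY4 at 144, 174 and 158 CPM against 49.4, 62.3 and 64.5 CPM. WT dimerizer lay at 6.76, 162 and 34.5 CPM for the 3 genes. MYC was at 512, 518 and 512 CPM against 198, 202 and 209.8 CPM (1.34 ± 0.04, edgeR, adjusted p = 1.32e-21). CCND1 (cyclin D1) was lower, at 130.4, 110.0 and 136 CPM against 221, 266 and 265 CPM, and EGR2 and EPHA4 were the other 2 lower genes.

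Of the genes for ERBB receptors, their ligands and regulators, 8 of 13 tested were higher and 4 lower, against 7 and 5 on the TPM scale. Amphiregulin mRNA (AREG; chromosome 4, 74445134 to 74455009, plus strand) stood at 388, 405 and 402 CPM in JNKKO dimerizer against 62.3, 75.6 and 88.96 CPM in WT dimerizer with TGF-β1, with 104 CPM in WT dimerizer (2.40 ± 0.11, edgeR, adjusted p = 2.73e-10). HBEGF was at 15.5, 27.5 and 14.6 CPM against 2.60, 1.96 and 2.69 CPM, and EREG and TGFA were higher by 2.64 ± 0.17 and 0.94 ± 0.05. HBEGF and EREG were highest in JNKKO replicate 2. EGFR was lower, at 633, 729 and 650.0 CPM against 1028, 929 and 914 CPM (-0.51 ± 0.05), and ERBB2 was lower by 0.64 ± 0.04 and NGFR by 0.40 ± 0.09 (edgeR, largest adjusted p = 0.00226). The chimera joins the outer part of NGFR to the HER2 kinase, so reads of the transgene may count towards NGFR and ERBB2. LRIG1, which dampens these receptors, was higher, at 29.8, 31.5 and 30.4 CPM against 10.3, 10.4 and 10.5 CPM.

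YAP and TAZ targets, which report on cell tension and spreading, were lower in 16 of 19 and higher in 3. CTGF (CCN2), also a TGF-β target, was at 0.598, 0.160 and 0.579 CPM against 12.6, 14.0 and 17.3 CPM (-5.07 ± 0.26, edgeR, adjusted p = 4.42e-12). CYR61 (CCN1) was at 13.2, 12.7 and 11.4 CPM against 38.3, 40.6 and 43.6 CPM, with WT dimerizer at 10.3 CPM. AXL, a receptor kinase gene on this list, was lower by 0.47 ± 0.04.

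Glycolysis and hypoxia genes were higher in 22 of 26 and lower in 2 (22 and 1 without WT replicate 3), with a median of 0.66. On the TPM scale 16 were higher and 5 lower, with a median of 0.36. CA9 (chromosome 9, 35673856 to 35681159, plus strand), a carbonic anhydrase induced by hypoxia, was at 47.6, 28.96 and 49.7 CPM in JNKKO dimerizer against 0.121, 1.33 and 3.52 CPM in WT dimerizer with TGF-β1. It was at 8.81 CPM in WT dimerizer. The glucose transporter gene SLC2A3 was at 14.1, 14.9 and 15.7 CPM against 0.393, 0.895 and 1.54 CPM, and EGLN3, an oxygen sensor, at 73.9, 54.5 and 72.3 CPM against 7.77, 12.1 and 13.6 CPM. The log2 differences of CA9, SLC2A3 and EGLN3 were 4.66 ± 0.52, 3.98 ± 0.28 and 2.58 ± 0.26 (edgeR, largest adjusted p = 3.14e-06). WT replicate 1 was the lowest WT library in these 3 genes, and JNKKO replicate 2 the lowest JNKKO library in CA9 and EGLN3. Without WT replicate 3 the difference of CA9 was 5.91. Over the whole list, 22 were higher and 3 lower without WT replicate 1, and 22 and 1 without JNKKO replicate 2. GAPDH was higher, at 3737, 3345 and 3725 CPM against 1648, 1815 and 1846 CPM, whereas ENO1 was level.

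Of the unfolded protein and ATF4 response genes, 13 of 26 were higher and 9 lower, against 10 and 13 on the TPM scale. ATF4, a transcription factor of the stress response, was at 478, 519 and 477 CPM against 288, 299 and 304 CPM (0.73 ± 0.04, edgeR, adjusted p = 1.76e-16). TRIB3 (chromosome 20, 362835 to 397559, plus strand), a pseudokinase, was at 129, 193 and 137 CPM against 17.7, 21.8 and 24.6 CPM. PHGDH (chromosome 1, 119648411 to 119744226, plus strand), the first enzyme of serine synthesis, was at 50.9, 70.4 and 55.1 CPM in JNKKO dimerizer against 3.23, 3.05 and 3.58 CPM in WT dimerizer with TGF-β1, with WT dimerizer at 24.8 CPM (4.16 ± 0.21, edgeR, adjusted p = 7.96e-10). PSAT1 and ASNS were higher by 2.62 ± 0.12 and 2.21 ± 0.15. JNKKO replicate 2 was the highest library in TRIB3, PHGDH, PSAT1 and ASNS, and without it PHGDH was at 4.01. Of chaperones of the endoplasmic reticulum, HSPA5 was level and CALR was lower by 0.59 ± 0.04.

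**Figure D4:**
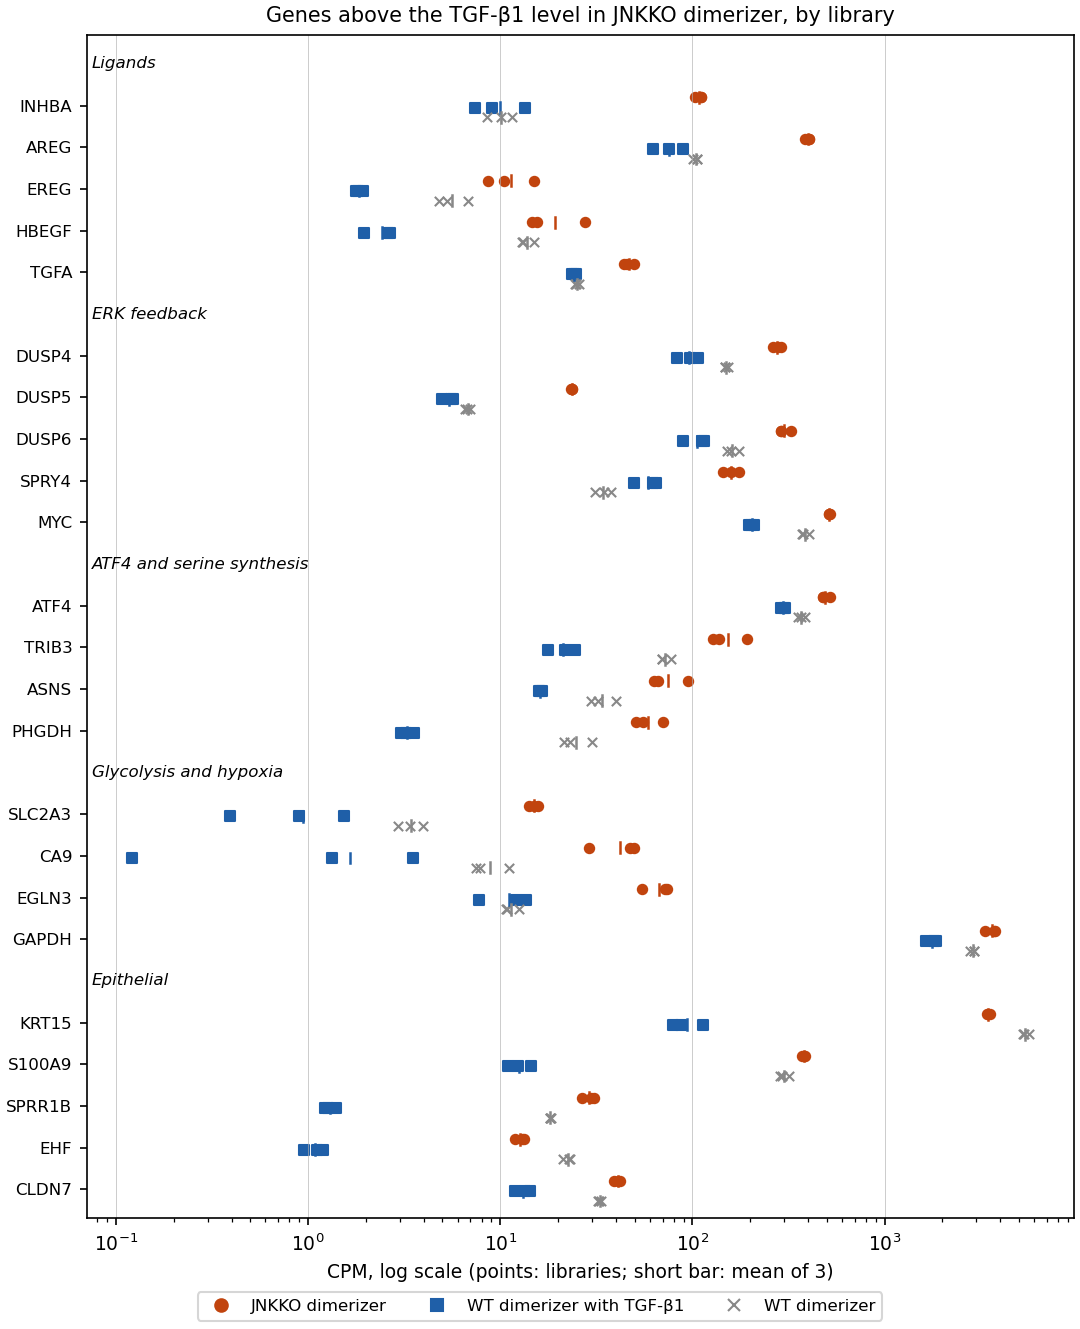
CPM (horizontal, log scale) of ligand, ERK feedback, ATF4, glycolysis and epithelial genes in each library of JNKKO dimerizer, WT dimerizer with TGF-β1 and WT dimerizer, with short bars at the means of 3. JNKKO dimerizer lies right of the TGF-β1 libraries in each gene shown; for INHBA, AREG and DUSP5 it also lies right of WT dimerizer, whereas for KRT15 and EHF it lies left of WT dimerizer.

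Proliferation genes were modestly higher, in 24 of 34 tested genes with 2 lower and a median of 0.43 (23 and 1 without WT replicate 3), and on the TPM scale 10 were higher and 7 lower. TOP2A was at 55.99, 51.6 and 62.98 CPM against 29.4, 28.1 and 31.8 CPM, and CDT1, a replication licensing gene, at 19.8, 15.2 and 20.3 CPM against 4.53, 3.58 and 4.51 CPM. MKI67 was at 41.9, 36.7 and 41.3 CPM against 29.5, 28.7 and 29.5 CPM (0.45 ± 0.15, edgeR, adjusted p = 0.0219), a call that was lost without JNKKO replicate 1, JNKKO replicate 3 or WT replicate 2. MKI67 was at 67.3 CPM in WT dimerizer, and the median member was 0.51 lower in JNKKO dimerizer than in WT dimerizer and 0.92 lower in WT with TGF-β1. CDKN1A (p21), an arrest gene that TGF-β1 induces, was lower, at 308, 331 and 305 CPM against 532, 561 and 567 CPM. Among apoptosis genes 5 of 15 rose and 4 fell, against 32.2% and 32.7% of all genes. On the TPM scale 4 rose and 9 fell. MCL1 was higher at 1435, 1528 and 1512 CPM against 895, 1000.0 and 1017 CPM. BMF, a pro-apoptotic gene, was lower at 2.73, 1.57 and 3.03 CPM against 22.6, 21.6 and 18.8 CPM.

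**Figure D5:**
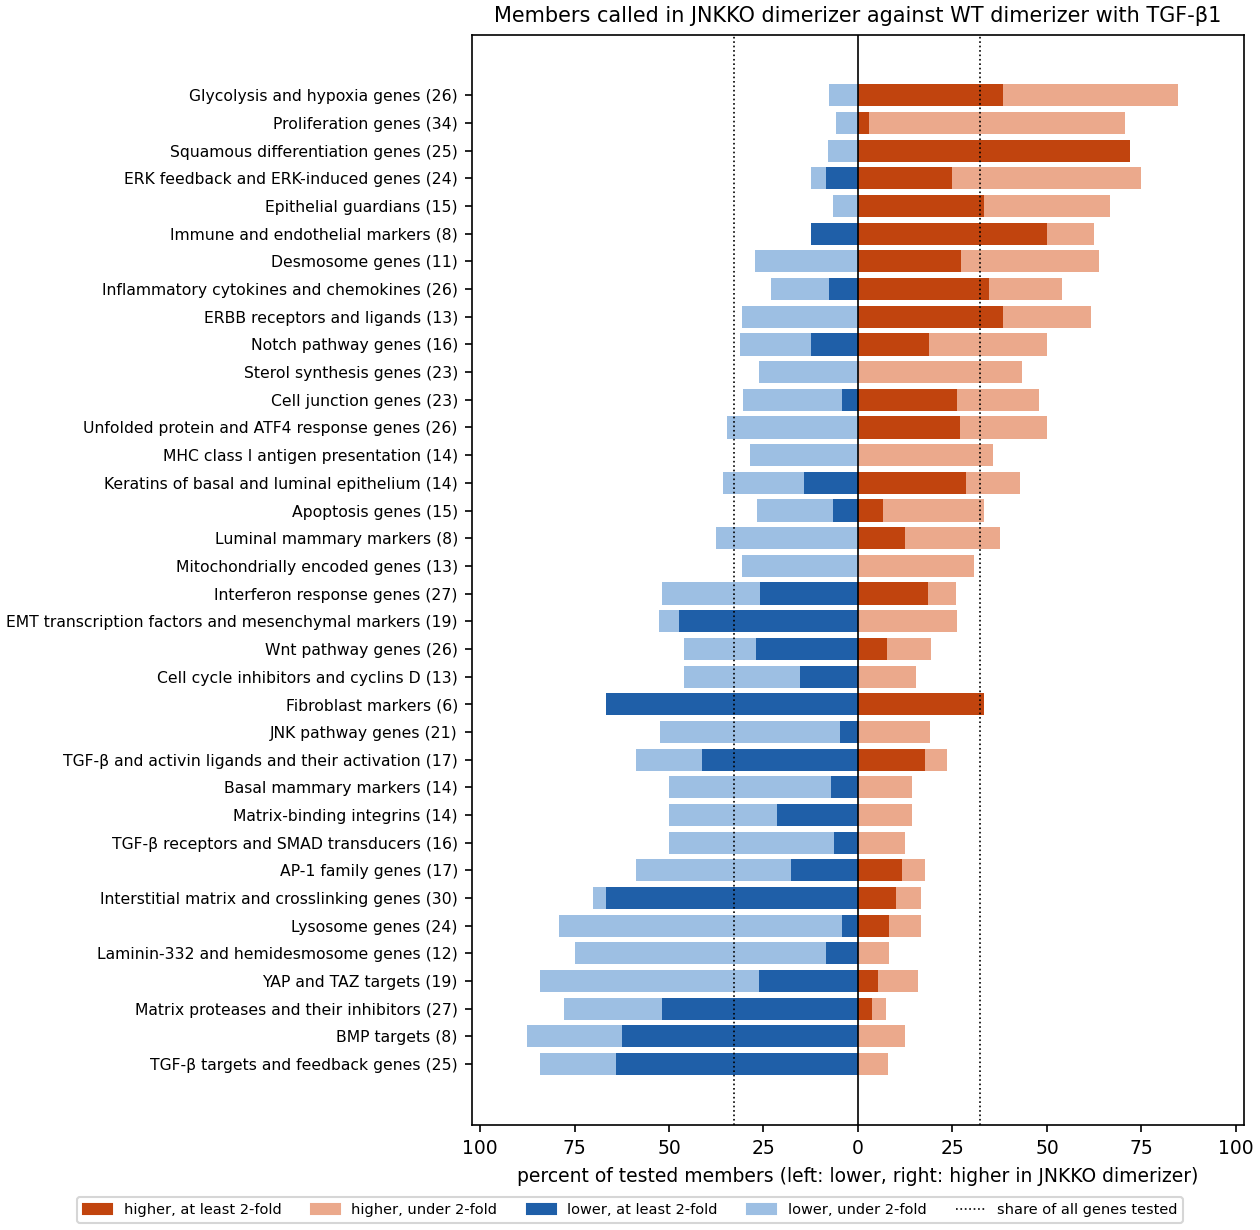
Percent of the tested members of each gene list (number in brackets) that were called higher (right) or lower (left) in JNKKO dimerizer than in WT dimerizer with TGF-β1, darker where at least 2-fold, with dotted lines at the shares over all genes, 32.2% and 32.7%. TGF-β targets, BMP targets and proteases stand at the low end, and glycolysis, proliferation, squamous and ERK genes at the high end.

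Among the largest single differences several fell outside the lists. IGF2 (chromosome 11, 2129112 to 2149603, minus strand), a growth factor gene, had 0 counts in the 3 JNKKO dimerizer libraries and 4.26, 8.92 and 7.25 CPM in WT dimerizer with TGF-β1, at least 202-fold lower. HS3ST2, a heparan sulfate sulfotransferase gene, had 2 counts against 542. LBH was at 2.48, 2.62 and 2.19 CPM against 136, 171 and 166 CPM, and the potassium channel gene KCNJ15 at 1.45, 1.05 and 1.13 CPM against 71.7, 84.2 and 76.2 CPM. CGB8, a chorionic gonadotropin gene with near-identical copies and so uncertain, was at 0.139 ± 0.145 CPM against 19.9 ± 2.69 CPM (SD, n = 3 each). WT dimerizer held at most 1.51 CPM of any of these 5 genes, so they were low in both groups without the cytokine.

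The largest rises were of several kinds. ALDH3B2, an aldehyde dehydrogenase gene, had 721 counts in JNKKO dimerizer, against 1 count in WT dimerizer with TGF-β1, a ratio of 767 (counting interval 137 to 30337). That count was in WT replicate 3, and WT dimerizer was at 5.48 CPM. CAMK2B was at 36.4, 31.2 and 38.5 CPM against 0.181, 0.365 and 0.679 CPM, with WT dimerizer at 37.8 CPM and JNKKO control at 111 CPM. A2ML1, a protease inhibitor of epidermis, was at 5.47, 4.66 and 5.47 CPM against 0.0907, 0.199 and 0.0926 CPM. These 3 genes were expressed in WT dimerizer and low with TGF-β1.

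Others were lower in both WT groups than in JNKKO dimerizer. TEK, the angiopoietin receptor gene, was at 19.5, 16.7 and 20.9 CPM against 0.272, 0.630 and 0.679 CPM, with WT dimerizer at 0.939 CPM and JNKKO control at 1.05 CPM. PADI4, a citrullinating enzyme, was at 25.5, 14.2 and 21.6 CPM against 0.0302, 0.133 and 0.864 CPM, with WT dimerizer at 1.09 CPM, and its log2 difference of 5.86 ± 0.48 was 7.93 without WT replicate 3, the value that moved most when that library was left out. LPAR3, a lysophosphatidic acid receptor gene, VGF and CHI3L1 showed the same order, with differences of 5.72 ± 0.18, 5.35 ± 0.14 and 5.47 ± 0.18 (edgeR, largest adjusted p = 6.49e-16). ALDH1L1, ADCY1 and DNAH11 were present in JNKKO control already, at 18.97, 2.06 and 2.97 CPM, and were at 13.6 ± 0.206, 5.53 ± 0.546 and 5.08 ± 0.656 CPM in JNKKO dimerizer against at most 0.401 CPM in any WT dimerizer with TGF-β1 library.

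Markers of other cell types were examined beside these results. The summed fibroblast list was at 104 to 119.8 CPM in JNKKO dimerizer against 763 to 846 CPM in WT dimerizer with TGF-β1, and 4 of 6 tested genes were lower and 2 higher. FAP, DCN, PDPN and COL1A1 made up that sum, while the defining fibroblast genes THY1, LUM, COL1A2, COL3A1 and TCF21 were at or below 0.154 CPM in each of the 6 libraries. The immune and endothelial list summed to 80.4 to 91.6 CPM against 41.3 to 43.6 CPM, with 5 of 8 higher and 1 lower. CD68, TEK and PECAM1 were among the higher genes, while PTPRC stayed at or below 0.511 CPM and CD3E, CDH5 and VWF at or below 0.121 CPM.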

How the data were processed

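RNA of MCF-10A.B2 acini was measured by RNA-seq in 18 libraries of 6 groups with 3 libraries each. The labels' protocols give column purification with DNase, oligo(dT) selection, rRNA removal, random hexamer priming and paired reads. RSEM, cutadapt and hg38 are named in the submitters' processing notes. The aligner is not given in the sources used here, nor are the annotation and the strand setting, and overlapping and antisense genes cannot be told apart. The authors deposited expected counts and TPM per gene, named so per the file headers. Spreadsheet-like changes to 127 gene symbols were undone (76 held "JNKKO" in place of a letter and digit), and 42125 of 42141 symbols matched GENCODE 29, the source of the hg38 positions. The rounded expected counts were fitted in edgeR 4.0.16 (R 4.3.3) with TMM scaling, its default low-count filter and the robust quasi-likelihood F test, with 1 mean per group over all 18 libraries. P-values were Benjamini-Hochberg adjusted over the 16911 genes tested. CPM are TMM-normalised, ± is the SD of libraries for levels and the standard error for log2 differences, and intervals at 95% and floors of 3 counts cover the model or counting error only. The step was tested on simulated data. Alternatives used limma 3.58.1 on log2(TPM + 1) and log2(TPM + 0.1), which understates changes of low genes, and DESeq2 1.42.0.

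The 36 gene lists and the genes followed were chosen with earlier results of these data known. Named genes are the 12 largest called, non-overlapping protein-coding rises and falls that average at least 5 CPM in the higher group, and per list up to 4 called genes of smallest adjusted p and up to 2 level genes. Other list members named were chosen after their values were seen. Some list members are not reported here by name, and the list counts include them.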

Additional observations from a re-analysis of the deposited data

How the results depend on the processing

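Totals of called genes stayed between 10235 and 11456 over the 16 alternatives, and between 10372 and 10626 when 1 library was left out. The direction split did not hold on TPM. Genes called higher, at least 2-fold higher and lower numbered 2652, 289 and 8674 with log2(TPM + 1), 2684, 675 and 8648 with log2(TPM + 0.1), and 2662, 296 and 8718 without a filter. Centred on library medians, 572 were at least 2-fold higher and 509 lower. Of 2604 repeats over 163 named genes, 2515 were counted as the same, 27 lost the call, 26 gained one and 36 reversed. A change of sign was counted as the same where neither fit called the gene, and as reversed only where a fit did.

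The reversals were of genes near 0, nearly all towards lower values on TPM. With log2(TPM + 1), log2(TPM + 0.1) and no filter in turn, COL17A1 was at -0.256, -0.256 and -0.256, ENO1 at -0.27, -0.27 and -0.27, HSPA5 at -0.214, -0.215 and -0.214, ITGB1 at -0.235, -0.236 and -0.235, ITGB4 at -0.259, -0.259 and -0.259, and ITGB8 at -0.179, -0.19 and -0.179. JUNB was at -0.258, -0.259 and -0.258, NOTCH1 at -0.263, -0.268 and -0.263, PLAUR at -0.23, -0.238 and -0.23, TGFB1 at -0.228, -0.234 and -0.228, TP63 at -0.233, -0.239 and -0.233, and SMAD2 at -0.155 and -0.161 with the filter. With TPM centred none of the genes above reversed: 161 genes were counted as the same, 1 lost its call, and PTPRC turned to 0.246. The cause of the reversals was not tested.

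Replicate numbers did not pair the libraries: same-numbered libraries deviated together with correlations of 0.026, 0.077 and 0.062, though each correlated best with its own number, and the replicate block gave 10961 called genes. Between 24243537 and 32774844 counts per library, genes with fewer than a few counts per library have ratios limited by counting error.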

Other observations

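Wnt pathway genes were lower in 12 of 26 tested and higher in 5. DKK1, a secreted Wnt inhibitor, was at 1.84, 1.44 and 1.71 CPM in JNKKO dimerizer against 56.9, 73.3 and 67.2 CPM in WT dimerizer with TGF-β1, and WT control held 96.6 CPM. The JNKKO libraries were close to WT dimerizer, at 1.93 CPM, and the log2 difference was -5.32 ± 0.12 (edgeR, adjusted p = 6.69e-21). The ligand gene WNT5A and the nuclear factor gene LEF1 fell by 1.80 ± 0.14 and 1.06 ± 0.10, and WNT3A rose by 3.08 ± 0.27. Centred on each library's median TPM, 10 members were lower and 8 higher and the list median turned to 0.015. The median of all genes was at 0.08 there.

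Lysosome genes were lower in 19 of 24 and higher in 4 (18 and 4 without WT replicate 3), with a median of -0.47 that stayed below 0 on each scale tried. CTSB, a lysosomal protease also secreted in invasion, was at 698, 631 and 709 CPM against 1173, 1236 and 1219 CPM, with WT dimerizer at 353 CPM. The JNKKO libraries thus lay between the other groups. GPNMB, a lysosomal membrane glycoprotein gene, was higher, at 351, 290.3 and 318 CPM against 168, 70.01 and 61.1 CPM, with WT replicate 1 well above the other WT libraries.

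Notch genes split, with 8 of 16 higher and 5 lower (5 and 6 on the TPM scale). NOTCH3 was at 10.6, 13.1 and 10.2 CPM against 2.42, 2.82 and 3.06 CPM, and LFNG, a glycosyltransferase that tunes Notch receptors, at 5.77, 4.41 and 5.50 CPM against 26.4, 24.1 and 24.4 CPM. NOTCH1 was level at 0.02 ± 0.06. Interferon response genes were lower in 14 of 27 and higher in 7 (16 and 6 on the TPM scale, 13 and 11 with TPM centred). STAT2, a transducer of type I interferon, was at 38.4, 35.8 and 37.8 CPM against 85.7, 81.3 and 80.3 CPM, and OAS1, an antiviral sensor, at 26.99, 25.9 and 26.5 CPM against 7.10, 5.20 and 5.03 CPM. Sterol synthesis genes were level in 21 of 23, against 46.3% of all genes. Inflammatory genes were higher in 14 of 26 and lower in 6 (11 and 9 on the TPM scale). MHC class I genes were higher in 5 of 14 and lower in 4, near the 32.2% and 32.7% of all genes. On the TPM scale 0 of them were higher and 8 lower.

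Keratins were higher in 6 of 14 tested and lower in 5 (4 and 5 on the TPM scale). Basal markers were lower in 7 of 14 and higher in 2, and luminal markers higher in 3 of 8 and lower in 3. On the TPM scale 10 basal markers were lower and 1 higher, and 3 luminal markers lower and 1 higher. Cell cycle inhibitors and D cyclins were lower in 6 of 13 and higher in 2 (12 and 1 on the TPM scale). Mitochondrially encoded genes were higher in 4 of 13 and lower in 4, near the 32.2% and 32.7% of all genes. On the TPM scale 1 of them was higher and 10 lower. Without WT replicate 3 the mitochondrially encoded genes were lower in 8 and higher in 3 on the CPM scale.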
